A study of Mus musculus with 15 samples.

Results

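The distal 5 Mb of the 19 mouse autosomes, the ends that lie away from the centromere, were examined in lists of domains with decreased H2A.X from mouse embryonic stem cells. On each autosome the highest domain end in any of 10 lists was taken as the distal end, and the bins of 1300 bp in the 5 Mb before it were counted as members. This gave 3846 bins per autosome and 73074 of the 1855546 bins between the first and last domain of each autosome, or 3.94% of that span. A domain was counted as distal where its end lay in these bins, which held for 929 of 23031 domains. The last bin of every autosome is covered by at least 1 list, because the rule takes it from a domain end. Beyond these ends, the rule uses no measured value. Positions are in the build mm9, 1-based.

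Native ChIP-seq, which immunoprecipitates nucleosomes from chromatin that was digested by a nuclease without crosslinking, was carried out by the submitters on stem cell lines of the cross 129S6 X C57B6. The lines, male and female, came from blastocysts, and the sex of each was not among the labels used here. Lists were analysed for 3 cultures in 2i/LIF (lines J34, J35 and J37), which is serum-free medium with LIF and inhibitors of Mek (PD0325901, 1 µM) and Gsk3 (CHIR99021, 3 µM). A further 2 lists, called switched below, were from cells that left 2i/LIF for Serum/LIF (lines J34 and J37). Serum/LIF, in which cells grow with serum and LIF on irradiated feeder cells, gave 3 lists titled XS (lines J30, J31 and J32) and 2 titled S (lines J35 and J37), titles that the labels do not explain. The code that opens a title, such as J34, is taken here as the name of the cell line, which the labels do not state. The labels name feeder cells for Serum/LIF only, so a contribution of their chromatin cannot be told apart from the culture. The series asks how H2A.X deposition compares between these cultures.

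H2A.X is a variant of histone H2A that is built into nucleosomes throughout the genome and is phosphorylated by damage-signalling kinases around DNA double-strand breaks. Mouse autosomes carry the centromere close to one end. Their other end runs through unique, often gene-containing sequence into subtelomeric duplications and the repeats of the telomere, which protects the chromosome end from being read as a break. Repeats of the telomere are hardly represented in a reference genome, so the windows described here hold the sequence before them and not the telomere itself.

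The lists of the S cultures hardly reached the distal windows: line J35 had no domain there and line J37 had 11, over 0.620 Mb. All comparisons of the distal windows with other parts therefore used the other 8 lists, called the wide lists below, which held 918 distal domains. Depth is unknown, as read counts are not part of the lists. Which control each list was called against is not given in the sources used here. Nothing says whether samples of a culture came from separate cultures of cells, and lines J34 and J37 each gave 2 of the 8 lists, so p-values measure only the spread between these lists. A region is taken to be in a list because H2A.X was below that control, per the name of the list, although the state given for each domain names the sample as enriched. Coverage below is the percentage of bins inside a decreased domain, averaged with equal weight over the 19 autosomes.

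Distal windows were covered more widely than the rest of the same autosomes in 7 of the 8 wide lists. In 2i/LIF the distal coverage was 53.6% in line J34, 83.2% in line J35 and 57.9% in line J37, against 34.4%, 78.3% and 45.4% over the rest. In the switched lists it was 55.0% in line J34 and 54.0% in line J37, against 42.3% and 42.2%. Among the XS lists it was 48.9% in line J30, 72.6% in line J31 and 36.4% in line J32, against 36.0%, 73.0% and 29.8%. The difference was widest in 2i/LIF line J34, at 19.2 percentage points, and absent in XS line J31, at -0.312 points. The mean of the 8 lists was 57.7% ± 14.4 (SD, n = 8) for the distal windows and 47.7% ± 18.02 for the rest. The mean difference of 10.0 ± 6.02 points (SD, n = 8 lists) had an exact sign-flip permutation p of 0.0156, two-sided, and an adjusted p of 0.0195 over 5 contrasts within lists. When lists of the same line were averaged first, the difference was 8.71 points and the adjusted p 0.0781 over 6 lines (exact permutation test, raw p = 0.0625). In the S lists, distal and other coverage were 0% and 0.0384% in line J35 and 0.653% and 0.366% in line J37.

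**Figure D1:**
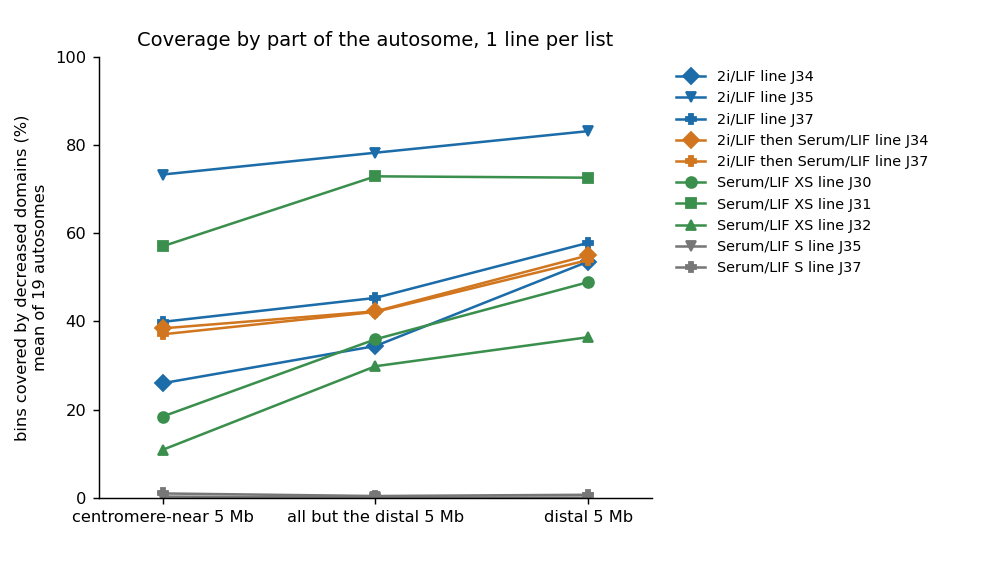
Percentage of bins covered by decreased domains (vertical axis, mean of 19 autosomes) in the centromere-near 5 Mb, in all but the distal 5 Mb and in the distal 5 Mb of the autosomes. Each line joins the values of 1 list, coloured by culture and with a marker for the cell line; all 8 wide lists are higher in the distal than in the centromere-near 5 Mb, 7 of them rise further from the middle part to the distal 5 Mb, XS line J31 is level there (73.0% and 72.6%), and both S lists lie near 0.

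The centromere-near 5 Mb, the opposite end of each span, were covered least. In 2i/LIF their coverage was 26.0%, 73.4% and 39.9% in lines J34, J35 and J37. In the switched lists it was 38.4% in line J34 and 37.1% in line J37, and in XS lines J30, J31 and J32 it was 18.4%, 57.1% and 10.9%. Distal coverage was higher in all 8 lists, by 20.1 ± 7.05 points (SD, n = 8; exact sign-flip permutation p = 0.00781, two-sided, the smallest that 8 lists allow; adjusted p = 0.0130). With lists averaged by line the adjusted p was 0.0521 (exact permutation test over 6 lines), at a difference of 20.2 points and the smallest raw p that 6 lines allow, 0.03125.

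The higher distal coverage was not particular to the last 5 Mb. In steps of 1 Mb, mean coverage of the 8 lists stayed between 56.1% and 75.5% from 5 to 20 Mb before the end, above the 47.7% of the rest as a whole. Against these 15 Mb alone, a comparison chosen after seeing the data, the distal windows were covered less in 7 of 8 lists, with means of 57.7% and 61.8%. The difference of -4.05 points had an exact sign-flip permutation p of 0.0234 and an adjusted p of 0.0586. It was -8.61, -8.11 and -6.14 points in XS lines J30, J31 and J32, -3.57 and -4.59 points in switched lines J34 and J37, and -0.240, 0.268 and -1.44 points in 2i/LIF lines J34, J35 and J37. Just inside the boundary of the window, from 4 to 5 Mb, mean coverage was 60.3% ± 13.9 (SD, n = 8), and just outside it, from 5 to 6 Mb, 57.2% ± 12.5.

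Within the distal windows coverage fell away towards the end of the chromosome. From the steps between 2 and 4 Mb before the end, at 67.3% ± 12.6 and 68.3% ± 14.1 (SD, n = 8), it went down to 55.0% ± 16.6 in the step from 1 to 2 Mb and to 37.6% ± 18.9 in the last Mb. In 7 of the 8 lists the last Mb was the least covered of all 20 steps, with 29.3% in 2i/LIF line J34, 39.9% in 2i/LIF line J37, 35.3% and 34.5% in switched lines J34 and J37, and 19.4%, 47.0% and 17.9% in XS lines J30, J31 and J32. The exception was 2i/LIF line J35, with 77.8%. The rule takes the end from the highest domain end in any list, and this list reached it on 15 autosomes. Its coverage beside the end, and the distance of other lists from the end, are therefore partly set by the rule. A window of 2 Mb gave other differences. Its coverage exceeded the rest by 4.44, 0.814 and 2.17 points in 2i/LIF lines J34, J35 and J37 and by 3.31 and 1.89 points in switched lines J34 and J37. All 3 XS lists lay below the rest there, at -6.76, -13.2 and -7.02 points in lines J30, J31 and J32. The mean over the 8 lists was -1.80 points, with an adjusted p of 0.469 (exact sign-flip permutation test). The excess differed by 11.5 points between 2i/LIF and XS (two-sided exact permutation test, p = 0.1, which is the lowest that 3 lists against 3 can give). Without the last 1 Mb, a setting chosen after the profile was seen, the distal windows exceeded the rest in all 8 lists, with means of 62.7% and 47.7%.

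**Figure D2:**
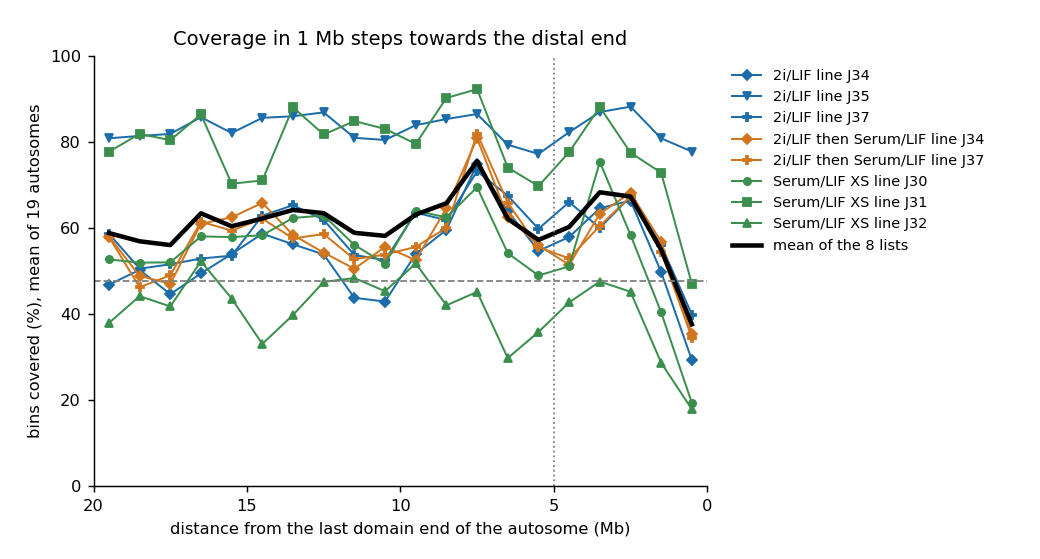
Percentage of bins covered (vertical axis, mean of 19 autosomes) in 1 Mb steps against the distance from the last domain end of the autosome (horizontal axis, Mb, with the end at the right), for the 8 wide lists and their mean in black. The dotted line marks 5 Mb and the dashed line the mean coverage of all but the distal 5 Mb; the mean falls from 68.3% between 3 and 4 Mb to 37.6% in the last Mb, and 2i/LIF line J35 stays at 77.8%.

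Few lists reached the last bin. On chromosome 4 all 8 wide lists had a domain that ended there, and on chromosome 7 there were 7, all but XS line J32. On 5 autosomes (1, 2, 5, 9 and 19) 2 of the 8 lists reached the end, and on 10 autosomes only 1 did. On chromosomes 16 and 17 none did, and the end was set by an S domain of line J37. By list, 2i/LIF line J35 reached the end of 15 autosomes, 2i/LIF line J37 that of 5, and the others that of 1 to 3. The median distance from the end to the last domain ran from 0 kb in 2i/LIF line J35 to 764 kb in XS line J30.

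Distal domains were longer than other domains of the same list in all 8 lists. In 2i/LIF the median length was 268 kb, 428 kb and 272 kb in lines J34, J35 and J37, against 189 kb, 360 kb and 220 kb elsewhere. In the switched lists it was 646 kb in line J34 and 265 kb in line J37, against 285 kb and 173 kb. In the XS lists it was 251 kb, 449 kb and 81.9 kb in lines J30, J31 and J32, against 200.2 kb, 390 kb and 79.3 kb. The gain in switched line J34, 361 kb, was the largest of the 8 and that in XS line J32, 2.60 kb, the smallest. The mean difference was 95.6 ± 110 kb (SD, n = 8; exact sign-flip permutation p = 0.00781, two-sided, the smallest possible; adjusted p = 0.0130), and 57.7 kb without switched line J34. It was 235 kb between mean lengths, 196 kb in the higher-scoring 50% of domains and 411 kb between medians taken per autosome and then averaged. The higher-scoring 50% leans to long domains, since the score of a domain is at most its number of bins. Averaged by line the difference was 78.7 kb and the adjusted p 0.0521 (exact permutation test, raw p = 0.03125, the smallest that 6 lines allow). Against domains ending from 5 to 20 Mb before the end it was 5.44 kb (adjusted p = 0.969, exact permutation test).

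Part of the distal length lay in very long domains. Domains of at least 1 Mb made up 36.0% of the 50 distal domains of switched line J34 and 13.5% of its other domains, 29.2% and 17.5% in 2i/LIF line J35, and 14.8% and 4.90% in 2i/LIF line J34. XS line J32 had about the same share in both parts, with 2.18% and 2.33%. The longest distal domain was in switched line J34, on chromosome 4 from 147218501 to 155629500 (8.41 Mb), and ran across the whole window to the end. The next were on chromosome 11 in both switched lists, from 116626901 to 121583800 in line J34 (4.96 Mb) and from 116638601 to 121426500 in line J37 (4.79 Mb). Then came a domain of 4.61 Mb on chromosome 16 (89510201 to 94120000) in switched line J34, and one of 4.50 Mb on chromosome 13 (115450401 to 119947100) in XS line J31. All but the last of these began before the window. A domain that crosses into a window is counted with its whole length, which was the case for 9 to 17 domains per list.

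The number of domains per Mb showed no common direction. It was 1.14, 1.26 and 1.36 in 2i/LIF lines J34, J35 and J37, against 1.08, 1.32 and 1.30 elsewhere. Both switched lists had fewer domains per Mb in the distal windows, with 0.526 against 0.785 in line J34 and 0.874 against 1.23 in line J37. The XS lists had more, with 1.11, 0.990 and 2.41 in lines J30, J31 and J32 against 1.05, 0.914 and 1.80. The mean difference was 0.0235 ± 0.290 per Mb, higher in 5 lists and lower in 3 (exact sign-flip permutation p = 0.813, adjusted p = 0.813).

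The authors' score per bin, the sum of the scores of domains over the sum of their bins, was higher for distal domains in all 8 lists. The score has no stated unit and is used within a list only. In 2i/LIF it was 0.920, 0.759 and 0.846 in lines J34, J35 and J37, against 0.877, 0.715 and 0.793 for other domains. In the switched lists it was 0.927 and 0.929 in lines J34 and J37, against 0.882 and 0.893. In XS lines J30, J31 and J32 it was 0.745, 0.692 and 0.795, against 0.688, 0.654 and 0.781. The gains were of similar size except in XS line J32, where it was 0.0137 against 0.0360 to 0.0570 in the other 7. The mean difference was 0.0412 ± 0.0131 (SD, n = 8, exact sign-flip permutation p = 0.00781, two-sided, the smallest possible, adjusted p = 0.0130). Averaged by line it had an adjusted p of 0.0521 (exact permutation test, raw p = 0.03125, the smallest that 6 lines allow). It was 0.0107 against domains that end from 5 to 20 Mb before the end (exact permutation test, adjusted p = 0.130).

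**Figure D3:**
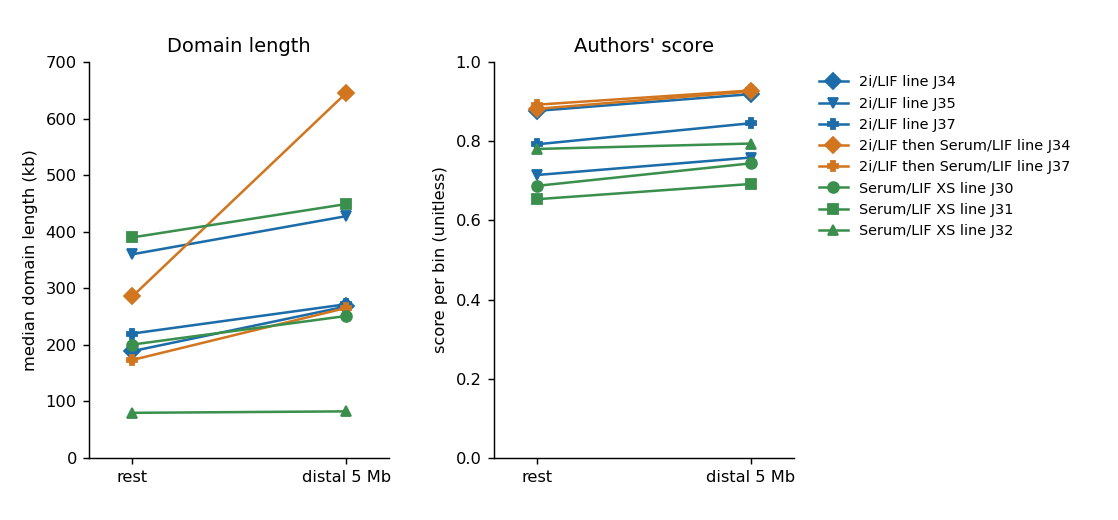
Median domain length in kb (left) and the authors' score per bin, unitless (right), for domains that end in the distal 5 Mb and for all other domains, with 1 line per wide list. Both values are higher for the distal domains in each of the 8 lists, by 2.60 kb to 361 kb and by 0.0137 to 0.0570.

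Autosomes differed widely in their distal windows. Mean coverage over the 8 lists ran from 30.02% on chromosome 3 to 92.0% on chromosome 4, with a median over the 19 windows of 61.7%. Over all 473 windows of the same width laid from the distal end of each autosome the median was 44.9%. Relative to the rest of its own autosome the distal window was higher on average on 13 autosomes and lower on 6. With a window of 2 Mb it was higher on 7 and lower on 12. A window was above the rest of its autosome in all 8 lists on chromosomes 4, 7, 9 and 11, so 4 of 19 or 21.1%, and 10.1% of all windows were. None of the 19 was below the rest in all 8 lists, and 9.94% of all windows were. In single lists the distal window was above the rest on 15, 14 and 14 of 19 autosomes in 2i/LIF lines J34, J35 and J37, where 46.7%, 58.4% and 51.4% of all windows were. The counts were 13 and 12 in switched lines J34 and J37 (47.6% and 45.9% of all windows) and 13, 10 and 11 in XS lines J30, J31 and J32 (46.5%, 54.5% and 41.6%).

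**Figure D4:**
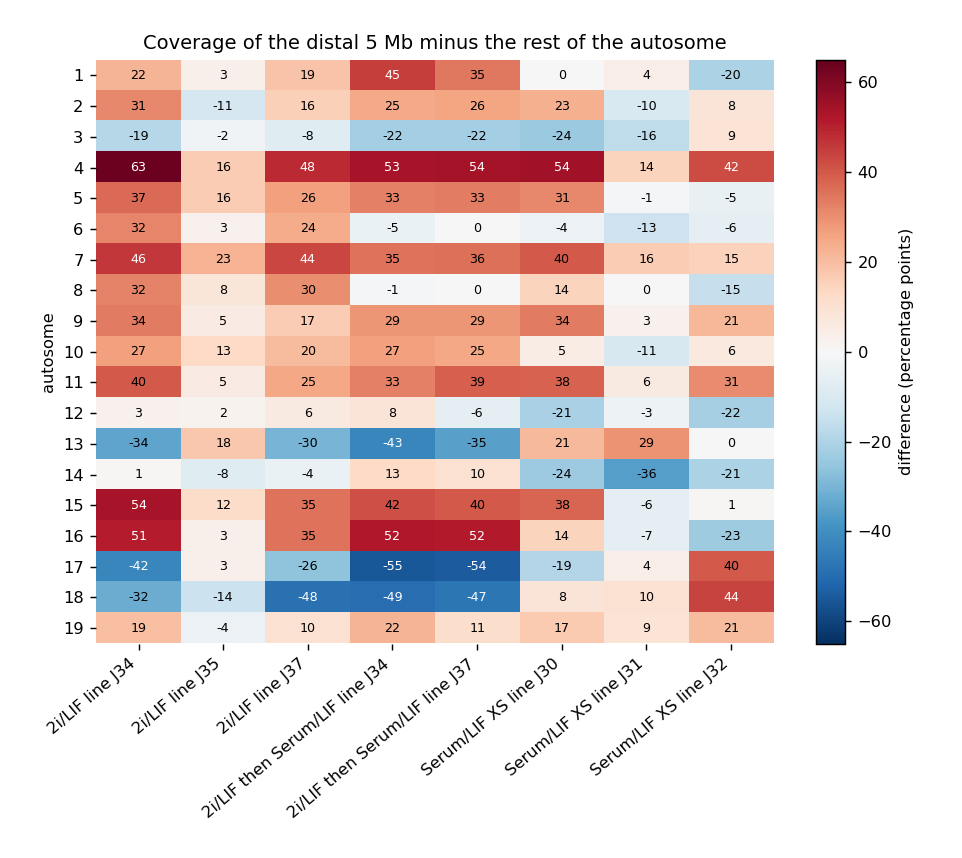
Coverage of the distal 5 Mb minus that of the rest of the autosome, in percentage points, for the 19 autosomes (rows) and the 8 wide lists (columns); red is higher in the distal window and blue lower. Chromosomes 4, 7, 9 and 11 are red in every list, while chromosomes 17 and 18 are strongly blue in both switched lists and in 2i/LIF lines J34 and J37, and red in XS lines J31 and J32.

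The end of chromosome 4 was the most covered of the 19, and the first of the 30 windows of that chromosome. The window, from 150629701 to 155629500, was covered over 95.7%, 93.3% and 92.0% in 2i/LIF lines J34, J35 and J37, 100% and 97.3% in switched lines J34 and J37, and 91.5%, 88.5% and 77.5% in XS lines J30, J31 and J32. All lists were high there, against 48.6% ± 17.3 (SD, n = 8) over the rest of the chromosome. In switched line J34 1 domain filled the window, and the other lists held 3 to 9 domains. Neither S list had any. In the RefSeq gene table of another build, GRCm38.p6, the last protein-coding genes of chromosome 4 in order include Agrn, which encodes the synapse-organising proteoglycan agrin, Isg15, an interferon-induced ubiquitin-like protein, and Noc2l. Their places in mm9 were not looked up, so no domain is assigned to them, and they were named after the values were seen.

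Chromosomes 7, 11 and 15 followed. On chromosome 7, from 147524001 to 152523800, coverage was 84.0%, 93.2% and 90.9% in 2i/LIF lines J34, J35 and J37, 85.6% and 83.8% in switched lines J34 and J37, and 77.5%, 80.7% and 41.9% in XS lines J30, J31 and J32. On chromosome 11, from 116716601 to 121716400, it was 91.0%, 87.9% and 85.9% in 2i/LIF, 97.3% and 99.5% in the switched lists, and 83.3%, 78.1% and 56.4% in XS, in the same order of lines. XS line J32 was the lowest list in each of these windows. On chromosome 15, from 98494501 to 103494300, the values were 86.7%, 95.1% and 85.2% in 2i/LIF, 89.3% and 85.1% in the switched lists, and 77.0%, 72.4% and 36.6% in XS. There XS line J31 lay below the rest of its chromosome, at -6.48 points. Mean differences to the rest over the 8 lists were 31.8 ± 12.2, 27.0 ± 14.2 and 26.8 ± 21.8 points (SD, n = 8) on chromosomes 7, 11 and 15.

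At the other extreme, the end of chromosome 17 was empty in 3 of the 8 lists. The window from 90272001 to 95271800 was covered over 0%, 81.9% and 27.7% in 2i/LIF lines J34, J35 and J37, 0% in both switched lists, and 25.6%, 76.7% and 73.3% in XS lines J30, J31 and J32. The rest of chromosome 17 was covered over 55.1% and 54.3% in switched lines J34 and J37 and over 33.5% in XS line J32. Thus XS line J32, the least covered wide list on average, was 39.8 points above the rest of the chromosome and the switched lists were 55.1 and 54.3 points below it. The mean difference over the 8 lists was -18.7 ± 33.0 points.

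The end of chromosome 18 was nearly uncovered in 4 of the 8 lists. From 85692101 to 90691900 its coverage was 0%, 66.9% and 2.81% in 2i/LIF lines J34, J35 and J37, 0% and 2.29% in switched lines J34 and J37, and 41.1%, 85.5% and 70.7% in XS lines J30, J31 and J32. All 5 lists with a history in 2i/LIF lay below the rest of the chromosome, at differences of -13.7 to -49.3 points, and all 3 XS lists above it, by 8.37 to 43.8 points. Such opposite signs between 2i/LIF and XS were seen on 3 of 19 distal windows and in 5.71% of all windows, and between the switched lists and XS on 2 of 19 and in 22.4%. XS lists come only from lines J30, J31 and J32, so culture and line cannot be told apart here.

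Chromosomes 3 and 13 were low in most lists. On chromosome 3, from 154599901 to 159599700, coverage was 3.54%, 77.5% and 20.6% in 2i/LIF lines J34, J35 and J37, 14.1% and 14.4% in switched lines J34 and J37, and 7.23%, 59.9% and 43.1% in XS lines J30, J31 and J32. Of the 8 lists 7 were below the rest of the chromosome, and XS line J32 was 8.71 points above. On chromosome 13, from 115221601 to 120221400, it was 3.43%, 95.4% and 25.1% in 2i/LIF, 7.31% and 15.3% in the switched lists, and 41.8%, 89.9% and 0% in XS. XS line J32 also had only 0.0858% of the rest of chromosome 13 covered. High coverage in both windows was seen in 2i/LIF line J35 and XS line J31, which also covered 78.3% and 73.0% of the rest of the autosomes. Against the rest of chromosome 3 these lists were at -2.04 and -16.3 points. On chromosome 13 they were at 17.6 and 29.3 points.

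On chromosomes 6 and 8 the distal windows were empty in both switched lists, as was nearly all of the rest. In 2i/LIF lines J34, J35 and J37 the end of chromosome 6 was covered over 62.1%, 79.9% and 50.5% and that of chromosome 8 over 66.7%, 82.9% and 59.6%. In the switched lists all 4 values were 0%, with at most 4.52% of the rest of either chromosome covered. In XS lines J30, J31 and J32 the coverage was 33.1%, 60.4% and 21.0% on chromosome 6 and 38.7%, 70.6% and 21.1% on chromosome 8. These were the only distal windows in which every 2i/LIF list lay above both switched lists, 2 of 19, and 12.1% of all windows had that order. On both, every 2i/LIF list was also above the rest of its chromosome and both switched lists were below it, a pattern that, with its reverse, 4.65% of all windows showed. The reverse order was seen on chromosomes 2, 4, 11 and 16, 4 of 19, and in 11.8% of all windows.

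Among the 3 cultures with wide lists, no difference in distal coverage passed the test. It was 64.9% ± 16.0 (SD, n = 3) in 2i/LIF, 54.5% ± 0.750 (SD, n = 2) in the switched lists, 52.7% ± 18.4 (SD, n = 3) in XS and 0.326% ± 0.462 (SD, n = 2) in S. The difference between 2i/LIF and the switched lists was 10.4 points (exact permutation p = 0.6, two-sided, where 0.2 is the smallest that 3 lists against 2 allow). Without chromosomes 6, 8 and 13 it was 2.12 points. With the line number as a block, which leaves out line J35, it was 1.25 points over all autosomes. Without chromosomes 6 and 8, whose distal windows were empty in the switched lists, distal coverage was higher after the switch in both lines. Line J34 had this order over all autosomes too, with 53.6% in 2i/LIF and 55.0% after the switch. In line J37 the direction turned, as all autosomes gave 57.9% in 2i/LIF and 54.0% after the switch. With chromosomes 6 and 8 left out, distal coverage in 2i/LIF and after the switch was 52.3% and 61.5% in line J34, and 58.2% and 60.3% in line J37. Leaving out windows that were empty only after the switch can move the values in this direction alone. Chromosome 17, also empty in both switched lists, was kept. Values without chromosomes 6, 8 and 13 are likewise partly set by that choice, as these were known to be low in some lists. For 2i/LIF minus XS the difference was 12.2 points (exact permutation p = 0.4, where 0.1 is the smallest possible). It ran from 3.07 without 2i/LIF line J35 to 22.2 without XS line J31. For the switched lists minus XS the difference was 1.82 points (exact permutation p = 1). Without chromosomes 6, 8 and 13 the differences to XS were 11.4 points for 2i/LIF and 9.30 points for the switched lists. The 2i/LIF and S lists did not overlap, and their means were 64.6 points apart (exact permutation p = 0.2, the smallest possible). In the S lists the deposited value in the fifth column, of unstated meaning, was above 0 in all 156 domains, and in the wide lists in 484 of 22875 (2.12%), so whether S domains are decreased in the same sense is not known. The excess over the rest of the autosome was 12.2 ± 7.14 points in 2i/LIF, 12.2 ± 0.661 in the switched lists and 6.42 ± 6.65 in XS. Its differences were -0.0507 points between 2i/LIF and the switched lists (exact permutation p = 1), 5.78 between 2i/LIF and XS (exact permutation p = 0.5) and 5.83 between the switched lists and XS (exact permutation p = 0.6). Without chromosomes 6, 8 and 13 they were -4.38, 5.71 and 10.1 points, in the same order. The lowest adjusted p of the 7 comparisons over all autosomes was 0.84 (exact permutation tests), and none of the designs could reach 0.05.

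In single windows the lists of 2 cultures often did not overlap. Both switched lists lay above every XS list in 10 of 19 distal windows (chromosomes 2, 4, 5, 7, 9, 10, 11, 14, 15 and 16), or 52.6%, whereas 24.1% of all windows had that order. The reverse was seen in 4 distal windows (6, 8, 17 and 18), or 21.1%, and in 28.3% of all windows. Distal coverage of the 2 switched lists was closely alike over the 19 autosomes (Pearson r = 0.990), so they act almost as 1 list in these counts. Every 2i/LIF list lay above every XS list in 5 distal windows (2, 4, 7, 11 and 15), or 26.3%, and in 8.25% of all windows. The reverse was not seen in any distal window and in 0.211% of all windows.

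Bins that all 8 wide lists covered made up 20.2% of the distal windows, 7.16% of the rest and 2.69% of the centromere-near 5 Mb. A bin in no wide list was less common in the distal windows, at 6.76% against 8.66% and 13.3%. These shares are given as a description, since lists may share a control. Of the 19.2 Mb covered by all 8 lists, chromosome 4 held 3.84 Mb and chromosome 11 held 2.80 Mb. The distal windows of chromosomes 3, 6, 8, 13, 17 and 18 held none. On chromosomes 6, 8 and 13 all 8 lists covered only 0.0368%, 0.0295% and 0.0324% of the rest as well. On chromosomes 3, 17 and 18 that share of the rest was 2.61%, 12.7% and 6.40%.

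The 5 longest unbroken stretches covered by all 8 lists were on 3 autosomes. The longest, of 1.51 Mb, was on chromosome 4 (152534201 to 154042200), and another of 933 kb lay just before it (151591701 to 152525100). Chromosome 11 held 1 of 1.11 Mb (118183001 to 119293200) and 1 of 486 kb (116996101 to 117482300). The last, of 985 kb, was on chromosome 2 (178206601 to 179192000). None of these 5 touched an S domain, and all lay at least 1.59 Mb before the end. Among stretches in no wide list, the longest measured 696 kb and was on chromosome 2 (176872801 to 177568300). It was followed by 527 kb on chromosome 12 (116571001 to 117097500) and 524 kb on chromosome 8 (129600901 to 130124800). Shorter ones of 281 kb on chromosome 17 (93678001 to 93958800) and 261 kb on chromosome 6 (148124601 to 148385900) completed the 5 longest. S domains of line J37 lay within those on chromosomes 2 and 12.

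**Figure D5:**
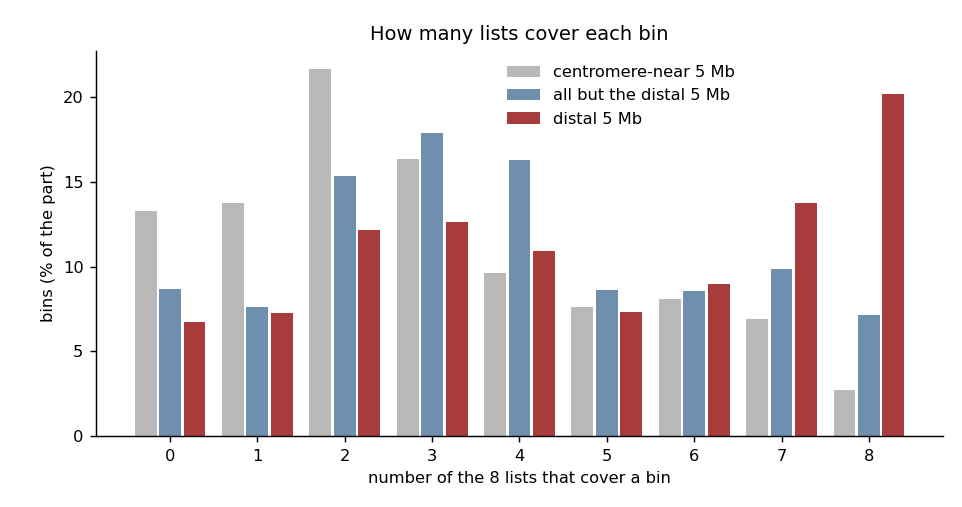
Share of bins in percent of the part (vertical axis) by the number of the 8 wide lists that cover a bin (horizontal axis), for the centromere-near 5 Mb, for all but the distal 5 Mb and for the distal 5 Mb. At 8 lists the distal share is 20.2%, against 7.16% and 2.69%.

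All 11 distal S domains were from line J37, on 6 autosomes, with lengths of 10.4 to 114 kb. Chromosome 2 held 5 of them, at 176993701 to 177017100, 177095101 to 177118500, 177764601 to 177824400, 181650301 to 181681500 and 181737401 to 181747800. Chromosome 12 held 2, at 116723101 to 116767300 and 116816701 to 116889500. The others were on chromosome 15 from 99915401 to 100001200, chromosome 16 from 98263101 to 98319000, chromosome 17 from 95157401 to 95271800 and chromosome 19 from 61243001 to 61341800. Of the 11, 4 ended at the last bin of the span, on chromosomes 2, 16, 17 and 19. A total of 6 were touched by no wide list, among them both domains on chromosome 12 and those on 16 and 17. The domain on chromosome 15 was touched by 5 of the 8 wide lists. The S list of line J35, which had 26 domains in all, held no distal domain.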

How the data were processed

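H2A.X domains of 10 of 15 samples were analysed; 1 further H2A.X sample, 3 inputs and 1 IgG control have no list among those used here. Reads were aligned with Bowtie2 2.0.6 to mm9, per the submitters' processing notes. Caller, settings, control and pooling were each not given in the sources used here. The deposited lists give a state that names a sample as enriched, a value and a score of unstated meaning per domain. The direction was taken from the name of the list, decreased, and the authors' score was used only within a list. Every domain lay on a grid of 1300 bp, no neighbouring domains overlapped, and no score exceeded the number of bins.

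The members, lists and rules were chosen with earlier results of these data known. Groups follow the labelled culture and, for Serum/LIF, the S or XS of the title. The code that opens each title (J30 to J37) was taken as the cell line, which the labels do not state. As a check of pairing, Jaccard indices of distal bins were 0.703 between 2i/LIF line J34 and switched line J34 and 0.718 between 2i/LIF line J34 and switched line J37. For 2i/LIF line J37 it was 0.659 with its own number and 0.651 with line J34. Between the 2 switched lists it was 0.901, and between 2i/LIF lines J34 and J37 it was 0.791. The lists of these 2 lines were thus more alike within a culture than within a line. Contrasts within lists were tested by exact two-sided sign-flip permutation, and groups by exact permutation of the difference of means. Adjustment was by Benjamini-Hochberg over 5 and 7 tests, with a threshold of 0.05. For all windows, non-overlapping windows of 3846 bins were laid from the distal end of each autosome, 473 in all.

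Regions named were, by rule, the 4 autosomes with the highest and the 4 with the lowest mean distal difference, chromosomes 6, 8 and 13, the 5 longest stretches in all and in none of the 8 lists, the 5 longest domains and all S domains. Alternatives changed the window width, the end, the reference bins, the weighting, the domain filter, the lists and the pairing. Coverage and the sign-flip test were tried on simulated lists, in which the domains of each list were shuffled independently. The real lists share positions (median Jaccard index of distal bins 0.585), so the behaviour of the test for such lists was not tested. The gene table at hand is of GRCm38.p6, so no gene was assigned and no sequence is shown. Python 3.11.15, numpy 2.4.6, pandas 2.3.3 and matplotlib 3.10.9 were used.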

Additional observations from a re-analysis of the deposited data

Results flagged for a closer look

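On some autosomes every list of one culture had its distal window above the rest and every list of another culture below it. These differences were not tested on their own, and no cause is weighed. Between 2i/LIF and the switched lists this was so on chromosome 6, where the mean excess differed by 21.8 points, and on chromosome 8, by 24.2 points; in the switched lists both chromosomes were nearly uncovered throughout. Together these are 2 of 19 distal windows, and 4.65% of all windows met the same condition. Between 2i/LIF and XS the difference was 27.3 points on chromosome 6, 18.9 points on chromosome 12 and -52.2 points on chromosome 18, 3 of 19 windows against 5.71% of all windows. Between the switched lists and XS it was 38.0 points on chromosome 14 and -68.9 points on chromosome 18, 2 of 19 windows against 22.4%.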

How the results depend on the processing

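The excess of distal coverage turned with a window of 2 Mb (-1.80 points) and against the 15 Mb before the window (-4.05 points, a setting added after seeing the data). Against those 15 Mb the differences in length and score fell to 5.44 kb and 0.0107. Averaging lists by line, also added later, leaves 6 values. It gave 8.71 points for coverage, 20.2 points against the centromere-near part, 78.7 kb and 0.0402 for the score, all no longer past the threshold. Except for coverage against the rest, the raw p was 0.03125 (exact permutation test), the smallest that 6 lines allow. Without 1 list at a time the same differences ranged over 8.74 to 11.5 points, 18.6 to 21.5 points, 57.7 to 109 kb and 0.0389 to 0.0451, all past the threshold. Domains per Mb turned with the last 0.5 Mb left out (-0.0176), the last 1 Mb left out (-0.0217), covered bins only (-0.00425), midpoints in place of ends (-0.0409) and against the 15 Mb (-0.0145). The difference was 0.114, past the threshold (adjusted p = 0.0391, exact permutation test), in the higher-scoring 50% of domains. That choice leans to long domains, since a score is at most the number of bins, so it is not separate from the difference in length. Without 1 list the difference in domains per Mb was -0.0609 to 0.0780, below 0 without XS line J32. Windows above the rest in all lists numbered 2 at a width of 2 Mb, and 4 to 6 without 1 list. At 2 Mb the mean difference also turned on chromosomes 5 (-1.83), 6 (-12.3), 8 (-13.5), 9 (-3.89), 10 (-4.15) and 19 (-12.8), and the excess over the centromere-near part was 8.68 points. The difference in excess between 2i/LIF and the switched lists was 0.281 with covered bins only, 3.61 against the 15 Mb and 3.60 with the line number as a replicate block, and -3.54 to 3.60 without 1 list. Without 1 list, 2i/LIF minus XS was 3.07 to 22.2 points for coverage and 2.29 to 9.43 for excess, and the switched lists minus XS 2.46 to 9.11 for excess. The block changed no call, since no group comparison could pass. Distal coverage of the switched lists minus XS was -6.30 to 11.8 without 1 list, below 0 without XS line J30 or J32. The cause was not tested in any of these. Read depth is unknown and limits every value.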

Other observations

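The value in the fifth column, whose meaning is not stated, was above 0 in 10 of the 50 distal domains of switched line J34 (20%) and in 16.7% of its other domains. It was above 0 in 1 of 108 distal domains of 2i/LIF line J34 and in none of those of the other 6 wide lists, where at most 1.57% of other domains had such a value. All 11 distal S domains and all 119 others of line J37 were above 0, as were all 26 domains of S line J35. The SD of mean coverage over the 8 wide lists was 19.96 points over the 19 distal windows and 16.1 points over all 473 windows of the same width.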
